A study of Mus musculus with 12 samples.

Results

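In mouse embryonic stem cells given doxorubicin, 150 genes were followed that rose strongly in wild-type (WT) cells, stayed low in cells without p53 and still rose at least 3-fold in cells without Dux. They were taken from 54532 genes in the count table by a rule on CPM (counts scaled to the total of each library) averaged per group. The rule asked for at least 5 CPM in WT drug libraries, a ratio of (drug + 0.5) to (vehicle + 0.5) CPM of at least 3 in both WT and Dux knockout (DuxKO) cells, and p53 knockout (p53KO) drug libraries below 25% of WT drug libraries. Predicted genes with names of the form Gm plus digits were left out. Of 876 genes that passed, the 150 with the highest WT ratio were kept. Of these, 144 are protein coding and 6 are antisense or other noncoding genes.

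Poly(A)-selected RNA was sequenced from E14 cells, a mouse embryonic stem cell line grown here on gelatin with LIF and the 2i kinase inhibitors, a medium that holds cells in the naive pluripotent state. The groups were p53KO drug, DuxKO drug, WT drug, p53KO vehicle, DuxKO vehicle and WT vehicle, with 2 libraries each. Drug means 1 uM doxorubicin for 6 h and then drug-free medium, and vehicle means DMSO for the same 6 h and then fresh medium. The time spent in drug-free medium is not given in the sources used here. Knockout libraries 1 and 2 come from separately numbered knockout lines, so their spread includes the difference between lines. The WT libraries (called a and b) carry no line number and all share a single label. Their spread is thus not one between labelled lines. The deposited count column of DuxKO vehicle library 2 has the same 54532 values as that of DuxKO drug library 1. It was left out, which left 11 libraries in the tests, with DuxKO vehicle resting on library 1. Values of DuxKO vehicle library 2 given below were recovered from its FPKM.

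The transcription factor p53 is held at low levels by the ubiquitin ligase Mdm2 and is stabilised when DNA breaks. It then binds DNA as a tetramer and switches on genes of cell cycle arrest, death, repair and metabolism. Doxorubicin traps topoisomerase II on DNA and leaves such breaks. Dux is a homeodomain transcription factor of the mouse 2-cell embryo that switches on the genes of that stage.

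Total counts ran from 23270358 to 56795858 per library. Trp53, the gene of p53, had 103 and 51.3 CPM in p53KO drug libraries and 64.4 and 36.5 CPM in p53KO vehicle libraries, against 144 and 131 CPM in WT drug and 184 and 148 CPM in WT vehicle. Counts of a gene say nothing of the protein, and the edited stretch is not given in the sources used here. Duxf3, the gene of Dux, had 0 counts in every DuxKO library and 4.25 and 0.859 CPM in p53KO drug libraries 1 and 2, against 23.1 and 22.5 CPM in WT drug. The summed level of 7 stem cell genes (Pou5f1, Nanog, Sox2, Klf4, Esrrb, Zfp42 and Tdgf1) was 2461 and 2102 CPM in p53KO drug, 1779 and 1643 CPM in DuxKO drug and 765 and 612 CPM in WT drug, and ran from 3272 to 3886 CPM in the vehicle libraries. The sum over 6 trophectoderm genes was 70.6 and 36.7 CPM in p53KO drug, 95.4 and 149.6 CPM in DuxKO drug and 196 and 201 CPM in WT drug. Under vehicle it was 78.3 and 13.4 CPM in p53KO, against 23.3 and 23.7 CPM in WT. In DuxKO vehicle it was 8.17 CPM in library 1 and 24.6 CPM in the recovered library 2, so the 2 lines differed. Krt7, also a member, made up 86 and 131 CPM of the sum in DuxKO drug and 126 and 103 CPM in WT drug, and Cdx2 stayed below 1 CPM in each library. In p53KO drug the sum over 6 fibroblast genes was 10.8 and 11.9 CPM, and in DuxKO drug 12 and 18 CPM. It was 28.3 and 29.2 CPM in WT drug, against 5.69 and 4.33 CPM in WT vehicle. Col1a1 made up 19 and 19.9 CPM of the WT drug sum, and Dcn and Lum stayed below 0.2 CPM in each library. The sum over 5 primitive endoderm genes was 7.6 and 6.7 CPM in p53KO drug and 7.05 and 8.24 CPM in DuxKO drug. In WT drug it was 12.3 and 12.8 CPM, and in the vehicle libraries it ran from 1.93 to 4.68 CPM. In bulk RNA, fewer cells of a type and less RNA per cell cannot be told apart, and the part of these shifts in the members' values was not tested.

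The values that chose the genes are given first, as a description. The WT ratio of the 150 genes ran from 24.3 to 499 with a median of 39.3, and the DuxKO ratio from 3.23 to 346 with a median of 28.3. In p53KO cells the same ratio had a median of 2.42. The rule set no threshold on this ratio, but its limit on p53KO drug libraries favours low values of it. The level in p53KO drug libraries was under 5% of that in WT drug libraries for 102 genes and at least 10% for 13 genes. Across all 28643 genes tested, 29% were called higher and 23.4% lower under drug in WT cells (edgeR, adjusted p under 0.05), and nothing is read from these shares here because the rule used the same contrast.

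The gene just inside the last rank was Il20rb, with a WT ratio of 24.34, and the gene just outside was Apob, with 24.2. The lowest DuxKO ratio inside was 3.231, for Hnf4aos, and the nearest gene outside was Myo5b with 2.985. Another 195 genes met every other condition of the rule and failed this one. The highest p53KO share inside was 19.35% for Sez6, and Chit1, with 27.62%, was the single gene that failed only there. The lowest WT drug level was 12.52 CPM, for Abcc9, so the limit of 5 CPM removed no gene near the list.

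Levels in WT vehicle cells were low. The mean over WT vehicle libraries had a median of 0.52 CPM, 83 genes had at least 10 counts in both libraries, and 6 had 0 in both. In p53KO vehicle libraries 16 genes had 0 in both. FPKM are scaled to whole gene spans, and whether the counts include intron reads is not given in the sources used here. Between 72.1% and 77.5% of all counts above 0 were even in the libraries used, so a sequenced fragment mostly added 2 counts, and counting intervals below use halved counts. Intervals and floors cover counting error only.

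Few of the 150 genes were on a list of known p53 targets or of cell death. Of 85 measured genes of a p53 target list, 32 passed the thresholds and 3, Fas, Ckm and Tap1, were among the 150. Of the 54532 genes in the count table, 876 passed and 150 were kept, so both shares were larger among the targets than among all genes. Of the other 82, 47 had a WT ratio under 3 and 29 met every threshold with a lower rank. Mdm2 itself had a WT ratio of 6.67 and rank 669, Plk2 16.1 and rank 278, Pmaip1 18.6 and rank 222, Trp53inp1 3.04 and rank 873, and Ckap2 3.01 and rank 875, while Ccng1 failed with 2.69. These are the 6 most abundant targets outside the list, and their WT vehicle means were above those of all 150 genes, which reached 12.9 CPM at most. Of 31 genes of a cell death list, 2 were members, Fas and Mlkl. Of 21 listed genes of cell cycle arrest, 17 of naive pluripotency, 12 of fibroblasts and 14 of primitive endoderm, 0 were members. At the share over all genes, lists this short would mostly hold no member. Of the 82 targets outside the 150 genes, 8 were higher and 11 lower in DuxKO drug than in WT drug (edgeR), against 15.6% and 14.5% of all genes tested, with a median log2 difference of 0.18. In p53KO drug against p53KO vehicle, 10 were higher and 6 lower, against 9.31% and 8.09% of all genes, with a median of 0.16. These shares lie near or below those of all genes.

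Fas, the death receptor (chr19:34290666-34327772, plus strand, GRCm38), had 1.86 and 0.258 CPM in p53KO drug libraries and 58.6 and 58.8 CPM in DuxKO drug libraries, against 62.5 and 59 CPM in WT drug. Under vehicle it had 0.13 and 0.061 CPM in p53KO and 0.317 CPM in DuxKO, against 1.85 and 1.26 CPM in WT. The DuxKO drug libraries lay just below the WT ones, and the log2 difference of -0.09 ± 0.48 (SE) was not called (edgeR's quasi-likelihood test, adjusted p = 0.91). In p53KO cells Fas still rose under drug, by 3.18 ± 0.93 on the log2 scale (adjusted p = 0.045).

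Mlkl, the effector of necroptosis, had 5.85 and 2.23 CPM in p53KO drug and 8.92 and 11.1 CPM in DuxKO drug, against 22.9 and 21.2 CPM in WT drug. It kept one of the larger shares in p53KO cells, 18.4% of WT drug. Its rise there, against 0.714 and 0.061 CPM in p53KO vehicle, was 3.09 ± 0.79 (log2, edgeR adjusted p = 0.03). Tap1, a subunit of the peptide transporter of antigen presentation, had 5.37 and 2.75 CPM in p53KO drug and 202 and 208 CPM in DuxKO drug, against 242 and 214 CPM in WT drug. All DuxKO drug values of Tap1 were below the WT ones, yet the difference of -0.19 ± 0.28 was not called (edgeR adjusted p = 0.64).

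Krt5, the type II keratin of basal epidermal cells (chr15:101707070-101712898, minus strand), had the highest WT ratio, 499. It had 5.96 and 0.0859 CPM in p53KO drug libraries and 179 and 239 CPM in DuxKO drug libraries, against 392 and 356 CPM in WT drug. Vehicle libraries held 0.279 CPM or less in each genotype. The groups did not overlap, and p53KO line 1 stood far above line 2. Per gene span, Sbsn, which encodes suprabasin of the epidermis, had the highest level of the 150 genes in WT drug, 102 and 94.1 FPKM, the authors' value scaled to depth and length. Krt5 followed with 67.9 and 62.6 FPKM, and Fgfbp1, a carrier of fibroblast growth factors, with 49.4 and 55.1 FPKM, and the libraries of these 3 genes did not overlap.

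In CPM, Sbsn had 12.4 and 3.82 in p53KO drug and 191 and 268 in DuxKO drug, against 470 and 428 in WT drug. Its neighbour Dmkn, the epidermal dermokine, had 2.46 and 0.688 CPM in p53KO drug and 18.4 and 28.4 CPM in DuxKO drug, against 52.7 and 42.5 CPM in WT drug. Tmem147os overlaps Sbsn, and its counts cannot be told from those of Sbsn. Krt7, a keratin of simple epithelia and trophectoderm, had 1.56 and 2.58 CPM in p53KO drug and 86 and 131 CPM in DuxKO drug, against 126 and 103 CPM in WT drug. Here DuxKO drug and WT drug libraries overlapped. Of 31 genes of a trophectoderm and epithelial list, Krt7 and Krt5 were members, and of the other 29 tested, 16 were higher and 2 lower in WT drug than in WT vehicle (edgeR), against 29% and 23.4% of all genes tested.

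Casp14, the caspase of the differentiating epidermis, was among 11 members with a mean in DuxKO drug at or above that in WT drug. It had 0.224 and 0 CPM in p53KO drug and 79.5 and 59 CPM in DuxKO drug, against 44.5 and 39.2 CPM in WT drug. The DuxKO libraries lay above the WT ones by 0.69 ± 0.35 on the log2 scale, a difference not called (edgeR adjusted p = 0.17). With the knockout line as a block it was called, as was Sec14l5.

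Ckm, the creatine kinase of muscle, had 2.38 and 0.602 CPM in p53KO drug and 57.2 and 86.5 CPM in DuxKO drug, against 135 and 112 CPM in WT drug. The antisense gene A930016O22Rik overlaps it, and reads of the pair cannot be told apart. Jph2, which ties the plasma membrane to the sarcoplasmic reticulum, had 3.13 and 1.46 CPM in p53KO drug and 51 and 56.8 CPM in DuxKO drug, against 43.4 and 44.2 CPM in WT drug. Cacna1s, the pore subunit of the skeletal muscle calcium channel, followed another course and is described with the DuxKO comparison.

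Eef1a2, the elongation factor form of muscle and neurons, had 6.56 and 0.43 CPM in p53KO drug and 60.9 and 75.9 CPM in DuxKO drug, against 130 and 112 CPM in WT drug. Alox5, the 5-lipoxygenase of leukotriene synthesis, had 2.46 and 0.516 CPM in p53KO drug and 120 and 132 CPM in DuxKO drug, against 161 and 150 CPM in WT drug. Slco2b1, an organic anion transporter, had 1.12 and 0.344 CPM in p53KO drug and 30.5 and 68.2 CPM in DuxKO drug, against 99.2 and 90.6 CPM in WT drug. For each of these 3 genes all p53KO values were lowest and no DuxKO value reached a WT one. Robo3, an axon guidance receptor, had 68.3 and 94.4 CPM in DuxKO drug against 114 and 88.3 CPM in WT drug, and these overlapped.

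**Figure D1:**
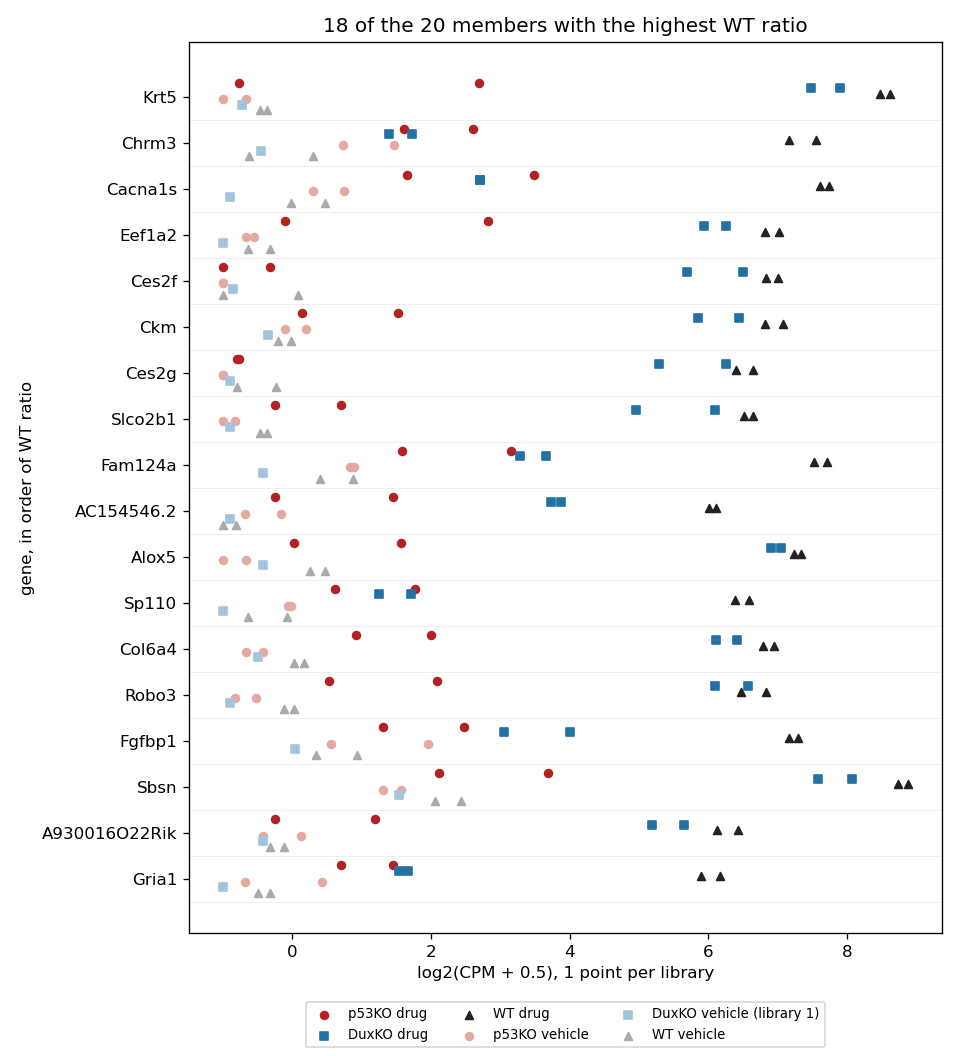
Level of 18 of the 20 members with the highest WT ratio in each of the 11 libraries, as log2(CPM + 0.5), with genes down the page and p53KO, DuxKO and WT libraries in different colours. WT drug libraries are farthest to the right in each gene except Robo3, where a DuxKO library overlaps them, p53KO drug libraries lie far to their left, and DuxKO drug libraries lie near WT for genes such as Alox5 and near p53KO for Chrm3, Sp110 and Gria1.

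Of the 150 genes, 17 lie within 100 kb of another member, a count for which the share over all genes was not computed. Among the 17 are overlapping pairs whose reads cannot be told apart, such as Ckm and A930016O22Rik. One run of neighbouring members holds the carboxylesterase genes Ces2e, Ces2f and Ces2g, which encode esterases that hydrolyse lipids and drugs, at chr8:104926260-104969537 on the plus strand. Ces2e had 0.0745 and 0 CPM in p53KO drug and 14.4 and 40 CPM in DuxKO drug, against 68.1 and 55.3 CPM in WT drug. Ces2f had 0.298 and 0 CPM in p53KO drug and 51.2 and 89.8 CPM in DuxKO drug, against 128 and 114 CPM in WT drug. Ces2g had 0.0745 and 0.0859 CPM in p53KO drug and 38.8 and 76.1 CPM in DuxKO drug, against 99.8 and 84.3 CPM in WT drug. In each gene the p53KO drug share of WT drug was 0.123% or less, and DuxKO line 2 was above line 1. The log2 differences between DuxKO and WT drug were -1.22 ± 0.44, -0.82 ± 0.56 and -0.72 ± 0.35 for Ces2e, Ces2f and Ces2g, and none was called (edgeR adjusted p = 0.069, 0.3 and 0.15).

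The promoters of the Ces2 genes are shown because the genes stand side by side and all 3 met the rule. Each sequence holds the 120 bases before the annotated start from RefSeq (GRCm38.p6), on the plus strand, at chr8:104926140-104926259, chr8:104947236-104947355 and chr8:104961598-104961717.
Ces2e: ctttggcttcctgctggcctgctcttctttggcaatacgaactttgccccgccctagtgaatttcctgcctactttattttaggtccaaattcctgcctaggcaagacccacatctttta
Ces2f: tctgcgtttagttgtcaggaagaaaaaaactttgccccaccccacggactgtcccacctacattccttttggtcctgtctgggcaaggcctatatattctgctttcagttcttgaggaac
Ces2g: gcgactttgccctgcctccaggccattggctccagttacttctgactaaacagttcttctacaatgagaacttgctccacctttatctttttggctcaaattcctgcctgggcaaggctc
Over the 250 bases before the start, aligned with gaps, Ces2e and Ces2f were identical at 48.5% of columns, Ces2e and Ces2g at 54.2%, and Ces2f and Ces2g at 47.3%. The same value for pairs of other promoters was not computed, so whether these promoters are related cannot be read from it.

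Promoters from 250 bases before to 50 bases after the start were in the RefSeq table for 110 of the 150 genes. The p53 consensus, searched by name on both strands with up to 2 mismatches, was found in the promoter of 1 of them, Ms4a10. That is 0.909% of the genes, against 0.189% of all genes in the table. The search asked for 2 adjacent decamers, the units of the consensus, with no spacer and the core of each intact. Sites of another form could not be found. The consensus was in 0.174% of the genes tested here. The sequence TGANTCA was in 11.8% of members, 8.97% of all genes in the table and 7.43% of the genes tested. TATAAA was in 8.18% of members, 15.7% of all genes in the table and 11.1% of the genes tested. The window of Ms4a10, a membrane protein of the MS4A family, is chr19:10974761-10974820 on the minus strand (GRCm38.p6), shown with the matched bases in capitals.
Ms4a10: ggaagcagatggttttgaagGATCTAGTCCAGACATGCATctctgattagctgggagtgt
The match starts 100 bases before the annotated start and has 2 mismatches. Ms4a10 had 0.224 and 0.602 CPM in p53KO drug and 44.3 and 50.7 CPM in DuxKO drug, against 68.5 and 61 CPM in WT drug. A match is a description of letters, and binding was not measured.

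Whether these genes rise in full without Dux was read from DuxKO drug against WT drug, a comparison that is not a contrast of the rule but shares its libraries. Ranking by the WT ratio favours high WT drug values, and so a lower DuxKO value. The DuxKO drug mean was below 25% of the WT drug mean for 36 genes and at least 50% for 85 genes, with a median of 55.3%. In edgeR, 64 of the 150 genes were lower in DuxKO drug, against 14.5% of all genes tested, 86 were not called and 0 were higher, against 15.6%. The median log2 difference was -0.90, against 0.00 over all genes. Because both means entered the rule, these counts describe the chosen genes and are no independent test. In the name, Dux-independent means only what the rule asks, a ratio of at least 3 in DuxKO cells. At an unadjusted p under 0.05, 75 were lower and 0 higher, and DESeq2 also gave 0 higher. With the knockout line as a block, the counts were 108 lower and 2 higher (Casp14 and Sec14l5), with 24.5% and 25.6% of all genes. Without DuxKO drug library 1 the count lower was 33, without WT drug library b 35, and without WT drug library a 41.

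The 5 genes with the lowest DuxKO share of the WT drug level had between 1.49% and 3.9% of it. Chrm3, the muscarinic acetylcholine receptor M3 (chr13:9875486-10360847, minus strand), had 2.82 and 2.14 CPM in DuxKO drug, against 143 and 188 CPM in WT drug, and the log2 difference was -6.11 ± 0.59 (edgeR adjusted p = 0.00015). Sp110, a nuclear body protein that is on both the 2-cell and the interferon list, had 1.87 and 2.78 CPM in DuxKO drug, against 83.2 and 95.6 CPM in WT drug (-5.31 ± 0.51, adjusted p = 0.00014). Cacna1s had 6.06 and 6.02 CPM in DuxKO drug, against 195 and 213 CPM in WT drug (-5.12 ± 0.59, adjusted p = 0.00036). In all 3 genes the DuxKO drug libraries overlapped the p53KO drug ones, which had 5.59 and 2.54 CPM for Chrm3, 2.91 and 1.03 CPM for Sp110 and 10.7 and 2.66 CPM for Cacna1s.

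Cd163, the haemoglobin scavenger receptor of macrophages, had 0.984 and 2.33 CPM in DuxKO drug, against 42.4 and 49.3 CPM in WT drug (edgeR adjusted p = 0.0018). Gria1, an AMPA glutamate receptor subunit, had 2.68 and 2.41 CPM in DuxKO drug, against 58.9 and 71.5 CPM in WT drug (adjusted p = 0.00056). DuxKO vehicle library 1 held 0 counts of both, and the DuxKO ratio with 0.5 added was 4.32 for Cd163 and 6.09 for Gria1. Fgfbp1 had 7.76 and 15.5 CPM in DuxKO drug against 143 and 157 CPM in WT drug. Wnt8a, a secreted Wnt ligand, had 3.27 and 4.86 CPM in DuxKO drug against 20.8 and 17.5 CPM in WT drug (adjusted p = 0.013). Wnt3, a ligand of the same family, had 31.5 and 40 CPM in DuxKO drug against 52.9 and 41.7 CPM in WT drug, and was not called (-0.44 ± 0.37, adjusted p = 0.39). Of 60 listed ligand and receptor genes these were the 2 members.

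At the other end, Sec14l5, a member of the SEC14-like lipid-binding family, had 154 and 141 CPM in DuxKO drug, against 99.4 and 69.6 CPM in WT drug, or 175% of the WT mean. Gpr55, a receptor for lysophospholipids, had 21.2 and 25.4 CPM in DuxKO drug against 21.4 and 17.7 CPM in WT drug, and these overlapped. The transcript 4933407L21Rik overlaps Gpr55, and reads of the pair cannot be told apart. Jun, the AP-1 subunit and 1 of 31 genes of a stress list, had 44.3 and 45 CPM in DuxKO drug, against 71.1 and 75.4 CPM in WT drug, and was lower by a log2 difference of -0.76 ± 0.18 (edgeR adjusted p = 0.012). DuxKO drug and WT drug libraries overlapped in 23 of the 150 genes. Both DuxKO libraries were below both WT libraries in 123, against 36.4% of all genes tested, and above both in 4 (Jph2, Sec14l5, Casp14 and 4933407L21Rik), against 40% of all genes.

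**Figure D2:**
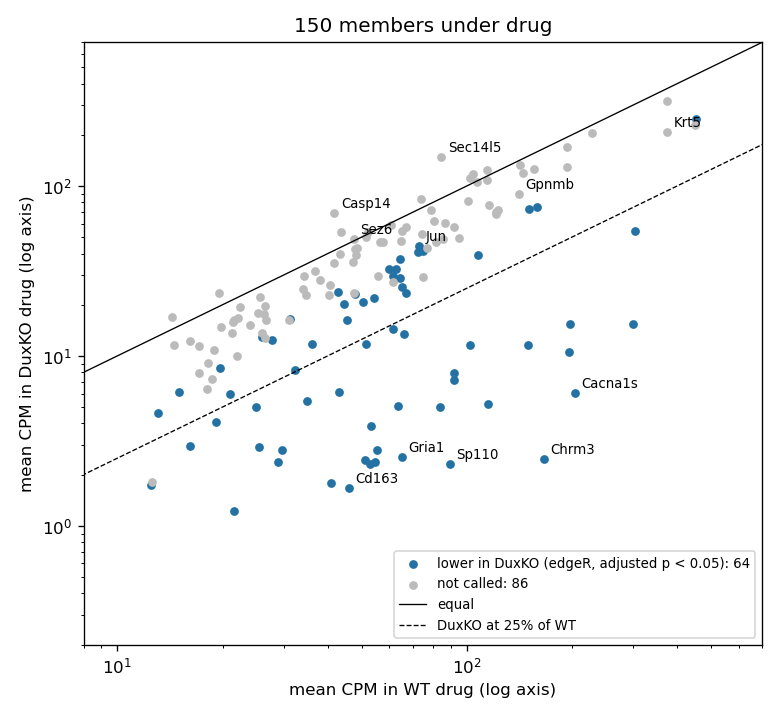
Mean CPM of the 150 genes in DuxKO drug (vertical, log axis) against WT drug (horizontal, log axis), with the 64 genes called lower in DuxKO in blue and the 86 not called in grey. The solid line marks equal levels and the dashed line 25% of WT, below which 36 genes lie.

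Gene spans, as annotated in GENCODE M21, are given beside the DuxKO share as a description, with no test, since the share is built from values of the rule. The median span was 81506 bases for the 36 genes below 25%, of which 17 were over 100 kb, and 22690 bases for the 85 genes at 50% or more, of which 7 were over 100 kb. Of all tested genes, 9.99% had a span over 100 kb, and 29 members did. Called lower genes had a median span of 51304 bases and those not called 21750.5 bases. Fgfbp1 and Sp110 have a low DuxKO share and spans under 100 kb. Counts may include intron reads, in which case span and level are not independent measurements. The part of span in the difference was not tested.

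**Figure D3:**
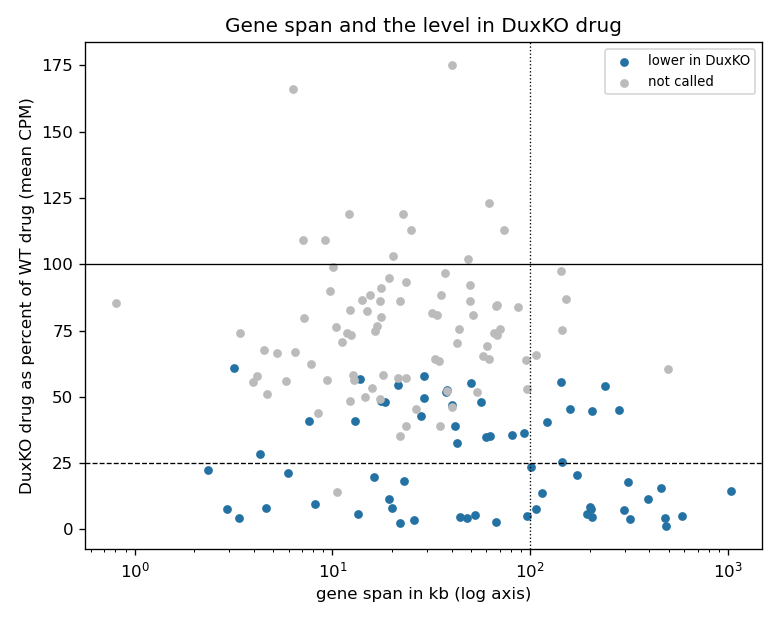
DuxKO drug level as percent of WT drug (vertical) against gene span in kb (horizontal, log axis) for the 150 genes, blue where called lower in DuxKO by edgeR. Dashed and solid horizontal lines mark 25% and 100%, and the dotted vertical line 100 kb, to the right of which 17 of the 36 genes below 25% lie.

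The knockout lines did not stand at the same level. DuxKO drug line 1 was below line 2 in 136 of the 150 genes, with a median ratio of 0.793, and by at least 1.5-fold in 35, while the reverse by 1.5-fold occurred in 0. Over all tested genes, line 1 was above line 2 in 46.9%. With DuxKO vehicle library 2 in place of library 1, 148 of the 150 genes still had a ratio of at least 3. The exceptions were Ak5, an adenylate kinase, with 2.79, and Kcne1, a potassium channel subunit, with 2.85.

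Whether the genes respond at all without p53 was read from p53KO drug against p53KO vehicle. The rule used the drug libraries of this pair, and its limit of 25% favours low values there. In edgeR, 77 of the 150 genes were higher under drug, against 9.31% of all genes tested, and 73 were not called. None was lower (0, against 8.09% of all genes), with 0 also at an unadjusted p under 0.05 and in DESeq2. In p53KO vehicle the members had a median of 0.358 CPM, so a fall could hardly be called, and nothing is read from the 0. At an unadjusted p under 0.05, 114 were higher. The median log2 change was 1.98, against 0.18 over all genes, and 1.80 with the 16 genes at 0 in p53KO vehicle set to a floor of 6 counts per library. That median was 1.22 without p53KO drug library 1 and 2.33 without p53KO drug library 2. With the knockout line as a block, 124 were higher and 0 lower, with 21.6% and 16.4% of all genes. Without p53KO vehicle library 2 the count higher was 51. On the FPKM scale, limma on log2(FPKM + 1) called 4 higher with a filter on low values and 5 without. The added 1 compresses changes of genes below 1 FPKM, so these counts and those of edgeR are on unlike scales. Chrm3, with 143 and 188 CPM in WT drug, had 0.298 and 0.398 FPKM there.

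The rise was small beside that in WT cells, which the rule required to be large. Sez6, a seizure-related membrane protein and the member with the highest p53KO share, had 8.2 and 10.2 CPM in p53KO drug, against 0.39 and 0.671 CPM in p53KO vehicle (log2 change 3.76 ± 0.33, edgeR adjusted p = 0.0014). WT drug libraries held 50.7 and 44.3 CPM of it. Tap1, at the values given above for p53KO drug, had 0.195 and 0.488 CPM in p53KO vehicle (3.24 ± 0.43, adjusted p = 0.0032). Jun had 9.61 and 9.97 CPM in p53KO drug, against 4.55 and 3.72 CPM in p53KO vehicle (0.91 ± 0.19, adjusted p = 0.013). In each of these genes both drug libraries were above both vehicle libraries.

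The largest fitted changes rested on vehicle libraries at 0. Itgb2, the beta 2 integrin of leukocytes, had 2.83 and 0.344 CPM in p53KO drug and 0 counts in p53KO vehicle, and was at least 8.41-fold higher against a floor of 6 counts per library (edgeR adjusted p = 0.018). Line 1 held 76 of its 84 drug counts and line 2 held 8, and the call was lost without p53KO vehicle library 1 (adjusted p = 0.052) or 2 (adjusted p = 0.059), in a range of 1.6e-05 to 0.68 over all alternatives. Apol10b, of the apolipoprotein L family, had 0.931 and 0.602 CPM in p53KO drug and was at least 4.06-fold higher against the same floor (adjusted p = 0.0059). Abcc9, the sulphonylurea receptor of potassium channels, had 0.522 and 0.344 CPM (at least 2.29-fold, adjusted p = 0.0083), and Otog, the inner ear protein otogelin, 0.447 and 0.344 CPM (at least 2.09-fold, adjusted p = 0.0075). Tnfsf4, the OX40 ligand, had 0.298 and 0.172 CPM in p53KO drug, a mean at or under that floor, so no fold is given.

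p53KO drug line 1 was above line 2 in 108 of the 150 genes and below it in 41, against 42.9% of all tested genes with line 1 above. The ratio was at least 2 in 51 genes, and in 4 genes the other way. The gaps were widest for Krt5, Eef1a2, Sytl1 (a synaptotagmin-like Rab effector), Them5 (a mitochondrial thioesterase) and Serpine2 (the serine protease inhibitor nexin-1). Serpine2 had 15.1 CPM in line 1 and 1.29 CPM in line 2 under drug, against 1.56 and 0.305 CPM under vehicle. The ratio of drug to vehicle had a median of 2.7 in line 1 and 1.85 in line 2, and drug was above vehicle in both lines in 136 genes. Duxf3 and Trp53 counts were also higher in line 1 than in line 2 under drug, and their part in these differences was not tested.

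**Figure D4:**
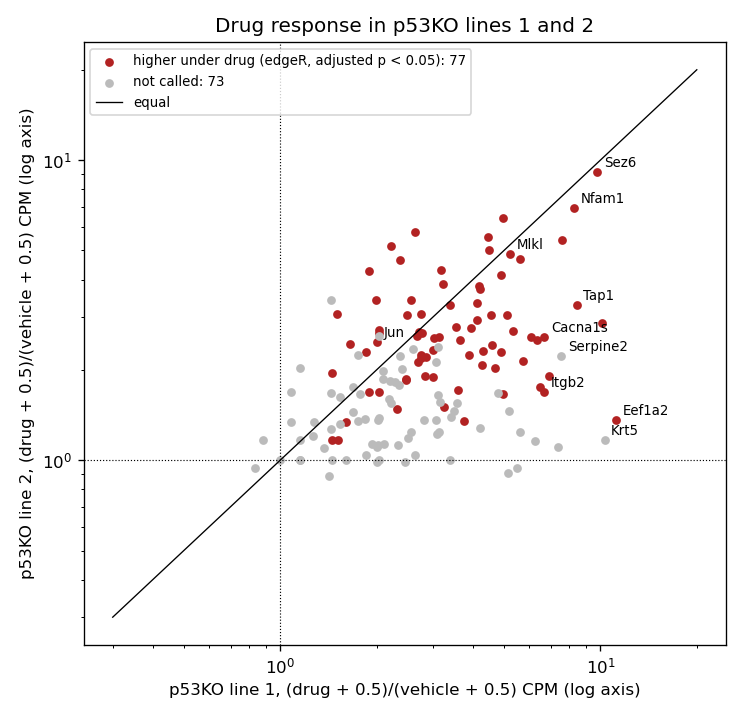
Ratio of (drug + 0.5) to (vehicle + 0.5) CPM in p53KO line 2 (vertical) against line 1 (horizontal), both on log axes, for the 150 genes. Red points are the 77 genes called higher under drug by edgeR. Of the 150 genes, 136 lie above 1 on both axes and 116 lie on the line 1 side of equality, where Krt5 and Eef1a2 stand farthest out.

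The state before drug was compared in vehicle libraries. The rule used WT vehicle as a denominator, which favours low WT values. In edgeR, 8 of the 150 genes were lower in p53KO vehicle than in WT vehicle, against 0.747% of all genes tested, 1 was higher, against 0.14%, and 141 were not called. The median log2 difference was -0.52, against 0.01 over all genes, and -0.28 with the 19 genes that had a group at 0 set to the floor. With the knockout line as a block, 43 were lower and 10 higher, with 6.44% and 5.61% of all genes. DESeq2 gave 24 lower and 4 higher. The count lower was 24 without either p53KO drug library and fell to 1 without WT vehicle library a. It was 3 without p53KO vehicle library 1 or WT drug library a, 4 without WT vehicle b, WT drug b or either DuxKO drug library, and 5 without p53KO vehicle library 2.

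Tap1, with 0.195 and 0.488 CPM in p53KO vehicle against 3.25 and 3.28 CPM in WT vehicle, was the most abundant of the 8 (log2 difference -3.17 ± 0.44, edgeR adjusted p = 0.015). Pla2g2f, a secreted phospholipase A2, had 2 counts over both p53KO vehicle libraries and 1.63 and 2.37 CPM in WT vehicle, a ratio of 0.0156 with a 95% counting interval of 0.000389 to 0.0908 (adjusted p = 0.0024). Ms4a10 likewise had 2 counts in p53KO vehicle, against 1.92 and 1.05 CPM in WT vehicle, a ratio of 0.0214 with an interval of 0.000528 to 0.126 (adjusted p = 0.012). Casp14 had 0 counts in p53KO vehicle against 0.961 and 0.977 CPM in WT vehicle, at least 5.13-fold lower against the floor (adjusted p = 0.03).

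Cpz, the carboxypeptidase Z of the extracellular matrix, had 0.065 and 0.061 CPM in p53KO vehicle against 2.96 and 2.51 CPM in WT vehicle (adjusted p = 0.025). Plch2, a phospholipase C, had 0.13 and 0.122 CPM against 1.85 and 1.12 CPM (adjusted p = 0.0073). The other two were C4b, a complement component, and Col22a1, a collagen of tissue junctions. Serpinf1, the antiangiogenic factor PEDF, was the one gene higher in p53KO vehicle, with 1.82 and 2.44 CPM against 0.37 and 0.279 CPM in WT vehicle (2.77 ± 0.30, adjusted p = 0.0046). Under drug it had 3.43 and 4.68 CPM in p53KO, against 54.2 and 46.8 CPM in WT. Of the 82 listed p53 targets outside the 150 genes, 27 were lower and 0 higher in p53KO vehicle (edgeR), against the 0.747% and 0.14% of all genes given above. Without WT vehicle library a, Pla2g2f kept its call. The other members called lower, Tap1 among them, lost theirs, and so did Serpinf1.

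**Figure D5:**
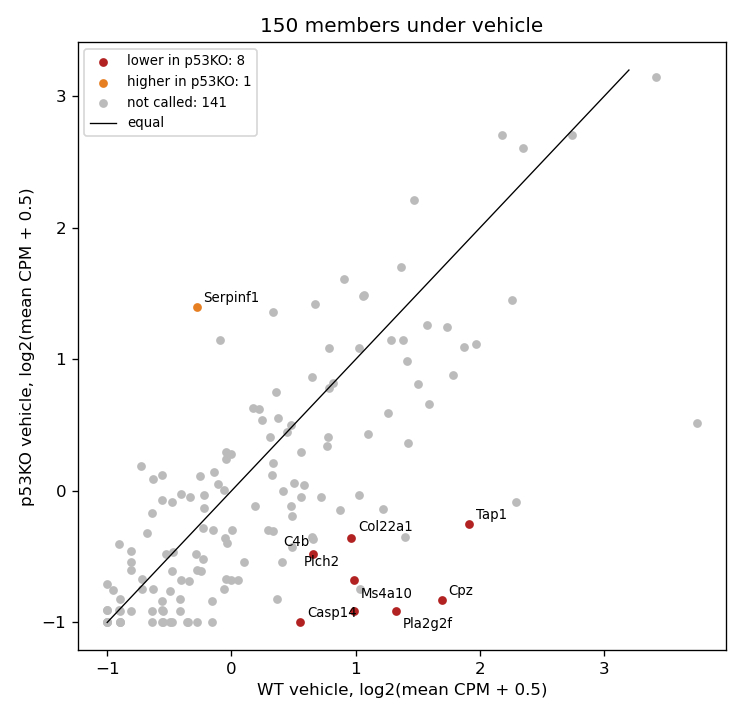
Level of the 150 genes in p53KO vehicle (vertical) against WT vehicle (horizontal), each as log2 of the mean CPM + 0.5. The 8 genes called lower in p53KO, among them Tap1, Cpz and Pla2g2f, lie below the line of equality, and Serpinf1, the 1 called higher, lies above it.

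DuxKO vehicle, with library 1 only and assumed to vary like the other groups, was lower than WT vehicle in 6 of the 150 genes, against 0.346% of all genes tested, and higher in 0, against 0.656% (edgeR). At an unadjusted p under 0.05 the counts were 50 lower and 1 higher, and with the knockout line as a block 44 lower and 2 higher, with 5.22% and 5.31% of all genes. DESeq2 gave 33 lower and 0 higher. The count lower was 30 without either p53KO drug library, 11 without either p53KO vehicle library and 0 without any one of the WT or DuxKO drug libraries or either WT vehicle library. The 6 genes were C4b, 5330417C22Rik, Slc6a13 (a GABA transporter), Pla2g2f, Parp10 (a mono-ADP-ribosyltransferase) and Vwce. C4b had 0.0704 CPM in DuxKO vehicle library 1 and 0.232 CPM in library 2, against 1.29 and 0.872 CPM in WT vehicle (-3.82 ± 0.58 with library 1, adjusted p = 0.037). Pla2g2f had 0.211 CPM in library 1 and 1.64 CPM in library 2, against 1.63 and 2.37 CPM in WT vehicle, so the knockout libraries were far apart. Over the 150 genes the median log2 difference with library 1 was -1.35, against 0.01 over all genes. It was -1.05 with the 23 genes that had a group at 0 set to the floor. The members had a median of 0.176 CPM in DuxKO vehicle library 1 and 0.52 CPM in WT vehicle. The rule used both as denominators of its ratios, which favours low values in each. With both libraries in the test, 5330417C22Rik, Pla2g2f and Parp10 were no longer called.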

How the data were processed

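Counts per gene and FPKM were used as the authors deposited them. FPKM are scaled to the whole gene span: in WT drug library a, count over FPKM was within 1% of a fixed multiple of the span for 97.8% of 13729 genes with more than 200 counts. Whether intron reads were counted does not follow from this. TopHat2, DESeq, DESeq2 and build mm10 are named in the submitters' processing notes. Neither versions nor the counter, annotation and strand setting are given in the sources used here. Group averages in 6 deposited columns were not used. Strand not being known, reads of overlapping genes cannot be told apart, and 68 members overlap another annotated gene.

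The tests used edgeR 4.0.16 (R version 4.3.3, TMM, filterByExpr with a minimum count of 10, a mean per group over 11 libraries, glmQLFit and glmQLFTest, Benjamini-Hochberg over 28643 genes, threshold 0.05). This edgeR fit was first tried on simulated data, for p53KO drug against p53KO vehicle only, and the rule and the alternatives were not. Alternatives were DESeq2 1.42.0, limma 3.58.1 on log2(FPKM + 1), RLE scaling, no filter, leaving out each library, and the knockout line as a block. Numbers in the labels mark the same knockout line in drug and vehicle, so the block is a pairing, and the line differences of p53KO vehicle and drug correlated at 0.434 over 28643 genes. Replicates are libraries, and whether they came from separate cultures beyond the line is known only from the submitters' design text. Counts of the second DuxKO vehicle library were recovered from FPKM, with 100% of 2154 low values within 0.15 of a whole read, for an alternative.

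The members and gene lists were chosen with earlier results of these data known. Genes named are the 20 with the highest WT ratio, members on a gene list, the 5 with the largest called change each way in each test, the 5 with the highest and lowest DuxKO share, the 5 with the widest gap between p53KO lines, genes at the rule's limits, neighbours within 100 kb, and Ms4a10 for its promoter. Not all of them are described, and some are not reported here. Ak5 and Kcne1 were named after their values were seen. Fold changes are on the log2 scale with SE.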

Additional observations from a re-analysis of the deposited data

How the results depend on the processing

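With 2 libraries a group, counts of called genes moved with the fit, and the cause was not tested. For p53KO against WT vehicle, the knockout line as a block gave 10 higher and 43 lower, the block with 12 libraries (added after the data were seen) 3 and 35, DESeq2 4 and 24, no filter 2 higher, and limma on FPKM 0 and 0 with or without a filter. Leaving out a library gave 0 to 3 higher and 1 to 24 lower. For p53KO drug against vehicle, the block gave 124 higher and with 12 libraries 118, and limma 4 with a filter and 5 without. Leaving out a library gave 51 to 112 higher and 0 lower. For DuxKO against WT drug, the block gave 2 higher and 108 lower, 12 libraries with the block 2 higher, and limma 2 higher with a filter and 3 without. Leaving out a library gave 0 to 2 higher and 33 to 85 lower. For DuxKO against WT vehicle, the block gave 2 higher and 44 lower, with 12 libraries 2 and 43, DESeq2 33 lower, and limma 0 lower with or without a filter. Leaving out a library gave 0 higher and 0 to 30 lower, and DuxKO vehicle 1 could not be left out. RLE scaling kept all 4 comparisons within 1.5 times. Of the 150 genes, 30 stayed with FPKM in the rule, 100 with a pseudocount of 0.1 and 142 when every library had to pass. Of 388 values of 21 single-gene results under 19 alternatives, 302 kept their call, 86 lost it and 0 reversed. Limma lost 12 with a filter and 16 without, and leaving out WT vehicle library a lost 10. In limma the added 1 compresses changes of genes below 1 FPKM: for Chrm3 the DuxKO drug difference was -0.42 without a filter, against -6.11 in edgeR. Low vehicle counts limit what the vehicle comparisons can show.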
